A study of Mus musculus with 6 samples.

Results

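The genes described here are 9 genes whose products mark megakaryocytes and platelets: *Pf4*, *Ppbp*, *Itga2b*, *Gp9*, *Gp1ba*, *Gp1bb*, *Gp5*, *Gp6* and *Vwf*. They were chosen by gene name, and 7 of the 9 carried their name on a feature of the deposited tables, out of 48733 named genes. *Gp9* and *Gp1ba* had no feature under their own name. The study profiled RNA from mice of the inbred Collaborative Cross strain CC016/GeniUnc by RNA-seq, in 3 libraries labelled bone and 3 labelled osteoblasts, to see which genes of a bone mineral density locus are expressed in bone and in bone cells. The bone label stands for cortical bone of the femur from which the marrow had been spun out. The osteoblasts label stands for bone marrow stromal cells, the adherent cells of the marrow, grown from femoral exudates and differentiated for 8 days in medium containing dexamethasone (10 nM), beta-glycerophosphate (10 mM) and ascorbic acid (50 µg/ml). All mice were of the same strain, no genotype or treatment differed between them, and age is not given in the sources used here. Expression is given as FPKM, fragments per kilobase of transcript scaled to the aligned fragments of the library, so levels of different genes are compared per length.

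Megakaryocytes are the large polyploid cells of the marrow that shed platelets into the blood. Their alpha granules store the chemokines platelet factor 4 (*Pf4*) and pro-platelet basic protein (*Ppbp*), and von Willebrand factor (*Vwf*), which endothelial cells also make. Their surface carries the fibrinogen receptor, of which *Itga2b* encodes the alpha chain (CD41), the GPIb-IX-V receptor for von Willebrand factor (*Gp1ba*, *Gp1bb*, *Gp9*, *Gp5*) and the collagen receptor glycoprotein VI (*Gp6*). Mature megakaryocytes and platelets are not part of the osteoblast lineage, and *Pf4* is also known to be transcribed in some macrophages.

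The libraries did not fall by label for the globin gene *Hbb-bt*, which marks red cells and their precursors. The FPKM of *Hbb-bt* was 7.05, 3.58 and 34838 in bone replicates 1 to 3 and 3.43, 34268 and 48650 in osteoblasts replicates 1 to 3. It was thus above 1000 in bone 3, osteoblasts 2 and osteoblasts 3, called the globin-rich libraries below, and below 10 in the other 3, the globin-poor libraries. The feature also spans the neighbouring globin gene *Hbb-bs*. The 5 erythroid markers measured beside *Hbb-bt* and the 8 neutrophil markers were all higher in each globin-rich library than in each other library. So were 38.4% of the 12112 genes with a mean of at least 1 FPKM. The type I collagen gene *Col1a1* was abundant in all 6 libraries, at 1499 to 3332 FPKM. Of the 8 osteoblast markers measured, 5 had neither order, with *Col1a1* among them. *Ibsp* and *Alpl* were below in every globin-rich library, *Ibsp* at 43.1 to 91.3 FPKM against 986 to 1278 in the others. *Bglap2* was above, at 1641 to 1959 against 264 to 513 FPKM. The osteocyte gene *Dmp1* was lower in the globin-rich libraries, at 22.5 to 24.2 FPKM against 50.0 to 126.6 in the others. *Sost*, also an osteocyte gene, was the other way round, at 15.8 to 22.7 FPKM in the globin-rich libraries and at 0.0661 to 0.198 in the others. Depth, read from the ratio of coverage to FPKM, came to 2.03 to 3.39 aligned gigabases. Features without a name took 71.5% of the FPKM of bone 2 and 65.0% of osteoblasts 1, against 27.4 to 30.7% in the others, which lowers the FPKM of named genes there. Labels were kept as deposited, and whether a library carries the wrong label was not tested.

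In each of the 7 named genes, every globin-rich library was above every other library, so that bone 3 stood with osteoblasts 2 and 3, and osteoblasts 1 stood with bone 1 and 2. The same order held for 4653 of the 12112 genes tested (mean over the libraries of 1 FPKM or more), which is 38.4%, and it also held for the 7 genes in the deposited TPM and after scaling each library to the sum of its named genes. The opposite order, lower in every globin-rich library, held for 2045 genes (16.9%). As the tissue was measured in bulk, fewer cells of a type and less RNA per cell cannot be told apart.

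**Figure D1:**
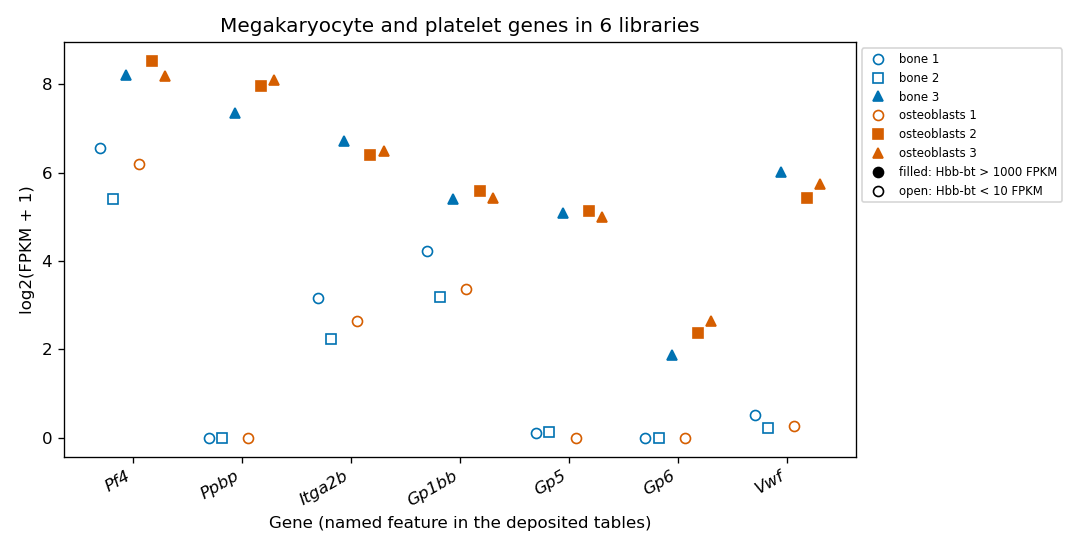
FPKM of the 7 named genes in each library as log2(FPKM + 1), with colour for the label, shape for the replicate and filled points for the 3 libraries with *Hbb-bt* above 1000 FPKM. For every gene the filled points lie above the open points, and *Pf4*, *Itga2b* and *Gp1bb* are the 3 genes whose open points all lie above 1 FPKM. The features of *Itga2b* and *Gp1bb* also cover a neighbouring gene.

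The sequences before the start sites of *Pf4*, *Ppbp* and *Gp5* are shown, chosen by their levels in the globin-poor libraries. *Pf4* stayed high there, *Ppbp* was listed at 0 and *Gp5* was at or near 0. The levels of *Ppbp* and *Gp5* there cannot be told apart. GATA and ETS factors are known regulators of megakaryocyte genes, so the windows were searched on both strands for GATA letters (AGATAA or its variant TGATAA, and likewise AGATAG or its variant TGATAG) and ETS letters (AGGAAG or its variant CGGAAG). Each line gives the 250 bases before the start in the gene's own 5′ to 3′ direction, from RefSeq on GRCm38.p6, with matches in capitals, read on either strand. *Pf4* lies on the plus strand at chr5:90772185-90772434, *Ppbp* on the plus strand at chr5:90768268-90768517, and *Gp5* on the minus strand at chr16:30310782-30311031.
Pf4: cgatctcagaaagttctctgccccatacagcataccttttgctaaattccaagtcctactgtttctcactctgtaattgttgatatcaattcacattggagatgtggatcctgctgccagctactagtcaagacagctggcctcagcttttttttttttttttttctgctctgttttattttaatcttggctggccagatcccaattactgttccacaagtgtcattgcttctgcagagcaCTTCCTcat
Ppbp: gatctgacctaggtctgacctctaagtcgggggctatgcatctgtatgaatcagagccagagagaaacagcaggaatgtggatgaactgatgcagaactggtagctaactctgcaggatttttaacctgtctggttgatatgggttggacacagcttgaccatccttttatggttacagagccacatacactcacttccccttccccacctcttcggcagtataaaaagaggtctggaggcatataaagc
Gp5: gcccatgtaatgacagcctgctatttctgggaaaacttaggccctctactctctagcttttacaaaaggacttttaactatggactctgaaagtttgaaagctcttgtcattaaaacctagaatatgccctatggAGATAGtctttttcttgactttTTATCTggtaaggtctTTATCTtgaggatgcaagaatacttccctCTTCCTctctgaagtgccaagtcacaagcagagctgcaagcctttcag
The *Gp5* window held 3 GATA matches, whose first bases lie 115, 93 and 77 bases before the start, and an ETS match 48 bases before it. The *Pf4* window held an ETS match 9 bases before the start, and a GATA match that begins at position 37 of the transcript falls outside the printed stretch. The *Ppbp* window held neither. Over windows of 300 bases (250 before and 50 after the start), 8 of the 9 genes had an entry; *Vwf* had none. GATA letters were found in 5 of the 8, ETS letters in 6 and both in 4, and no match overlapped another. Of 32851 promoters of the same length, 29.8% held GATA letters, 46.5% ETS letters and 12.6% both. These are matches of letters and no binding was measured.

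Among the granule chemokines, *Pf4* (Chr. 5, 90772435 to 90773383, plus strand) was the highest of the 7 genes in every library. Its FPKM was 93.3, 41.1 and 293 in bone 1 to 3 and 72.1, 366 and 290 in osteoblasts 1 to 3. The globin-rich libraries were the 3 highest, the lowest of them being 3.11 times the highest of the others, and the labels overlapped. This gap was 1.81 times after scaling to the sum of named genes and 2.20 times in TPM. The mean was 142 ± 133 FPKM for bone and 243 ± 153 for osteoblasts (SD, n = 3 each). Even in the globin-poor libraries *Pf4* was among the more abundant genes, at the 94.5th to 96.4th percentile of genes with at least 1 FPKM, against the 98.6th to 98.8th in the globin-rich ones. It made up 77.3 to 82.9% of the summed FPKM of the 7 genes in the former and 37.1 to 44.3% in the latter.

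*Ppbp* is the neighbour of *Pf4*, ending 2371 bp before it on the same strand (Chr. 5, 90768518 to 90770063), yet its pattern was different. It was listed at 0 in bone 1, bone 2 and osteoblasts 1. Its FPKM was 162 in bone 3, 249 in osteoblasts 2 and 272 in osteoblasts 3, where it was the second most abundant of the 7 genes. For its transcript of 1080 bases, 3 read pairs would give 0.123 to 0.205 FPKM, depending on the library. The mean was 53.8 ± 93.3 FPKM for bone and 174 ± 151 for osteoblasts (SD, n = 3 each). The ratio of *Ppbp* to *Pf4* within a library, which does not depend on how the library is scaled, was 0.551, 0.681 and 0.939 in bone 3, osteoblasts 2 and osteoblasts 3. With *Ppbp* at 0, *Pf4* alone of these granule chemokines was detected in the other 3 libraries.

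Macrophage markers were compared with *Pf4*, as macrophages can also hold its transcript. All 5 markers measured were lower in each globin-rich library than in each other library, an order that 16.9% of all genes tested had. None of the 5 was at 0, and their summed FPKM was 1327 to 2636 in the globin-poor libraries and 393 to 518 in the globin-rich ones. *C1qa*, which encodes a chain of complement C1q, was at 1156, 575 and 176 FPKM in bone 1 to 3 and at 633, 241 and 173 in osteoblasts 1 to 3. For each 100 FPKM of the summed macrophage markers there were 3.54, 3.10 and 74.7 FPKM of *Pf4* in bone 1 to 3. The same figure was 4.81, 70.7 and 71.8 in osteoblasts 1 to 3. The 3 libraries lower in *Pf4* were thus the 3 higher in macrophage markers. The part of macrophages in the *Pf4* level was not tested.

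**Figure D2:**
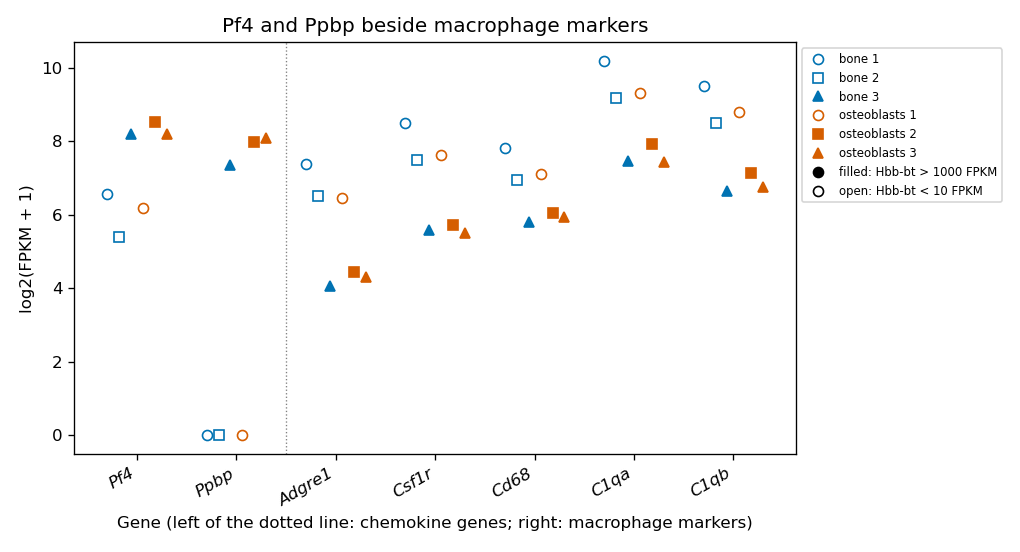
FPKM of *Pf4* and *Ppbp* (left of the dotted line) and of 5 macrophage markers (right) as log2(FPKM + 1), with colour for the label, shape for the replicate and filled points for *Hbb-bt* above 1000 FPKM. The filled points lie above the open ones for *Pf4* and *Ppbp* and below them for all 5 macrophage markers. Over all genes tested, 38.4% had the former order and 16.9% the latter.

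*Itga2b*, the alpha chain of the platelet integrin, was at 7.95, 3.72 and 104 FPKM in bone 1 to 3 and at 5.27, 83.9 and 88.4 in osteoblasts 1 to 3. The lowest globin-rich library was 10.6 times the highest of the others, and 7.22 times after scaling to the sum of named genes. The mean was 38.5 ± 56.7 FPKM for bone and 59.2 ± 46.8 for osteoblasts (SD, n = 3 each), with overlapping labels. The ratio of *Itga2b* to *Pf4* was 0.229 to 0.355 in the globin-rich libraries and 0.0731 to 0.0907 in the others. Its feature (Chr. 11, 102453297 to 102556392, minus strand) reaches beyond the RefSeq gene, which ends at 102469883, and also covers *Gpatch8*, so that a low level of *Itga2b* cannot be told apart from reads of that neighbour.

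Its beta chain partner *Itgb3*, which other cells including osteoclasts also use, was at 9.97, 2.62 and 69.3 FPKM in bone 1 to 3 and at 6.79, 52.6 and 73.8 in osteoblasts 1 to 3. It kept the order of the 7 genes, with all globin-rich libraries above the rest.

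Of the GPIb-IX-V receptor, *Gp1bb* and *Gp5* had a named feature. *Gp1bb*, the beta chain of glycoprotein Ib, was at 17.8, 8.11 and 41.2 FPKM in bone 1 to 3 and at 9.38, 47.1 and 42.2 in osteoblasts 1 to 3. Among the 4 genes above 0 in every library it had the smallest gap, the lowest globin-rich library being 2.32 times the highest of the others. After scaling to the sum of named genes the gap was 1.58 times. Its mean was 22.4 ± 17.0 FPKM for bone and 32.9 ± 20.5 for osteoblasts (SD, n = 3 each). The ratio of *Gp1bb* to *Pf4* stayed between 0.129 and 0.198 in all 6 libraries, and the globin-rich and other libraries overlapped in it. The feature (Chr. 16, 18620319 to 18629938, minus strand) also covers the adjacent gene *Septin5*, and reads of these genes cannot be told apart.

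*Gp5*, glycoprotein V, was at 0.0812, 0.0941 and 32.9 FPKM in bone 1 to 3 and at 0, 34.0 and 31.0 in osteoblasts 1 to 3. The values in bone 1 and 2 are close to the 0.0824 and 0.0933 FPKM that 3 read pairs give on its 2196 bases in those libraries. Its feature (Chr. 16, 30307686 to 30310779, minus strand) covers no other protein-coding gene. The mean was 11.0 ± 19.0 FPKM for bone and 21.7 ± 18.8 for osteoblasts (SD, n = 3 each). Among the 3 globin-rich libraries *Gp5* varied least of the 7 genes, the highest being 1.10 times the lowest, and the ratio of *Gp5* to *Pf4* there was 0.0929 to 0.112.

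The other 2 chains have no named feature, and the features that lie on their RefSeq genes were looked up after the values of the named genes had been seen. Within *Gp9*, glycoprotein IX (Chr. 6, 87776131 to 87779786), an unnamed plus-strand feature from 87777553 to 87779768 was listed at 0, 0 and 59.1 FPKM in bone 1 to 3 and at 0, 69.5 and 64.9 in osteoblasts 1 to 3. A feature named *Gm43904*, from 87776143 to 87777480 in the same span, was listed at 0, 0 and 6.25 FPKM in bone 1 to 3 and at 0, 3.33 and 4.54 in osteoblasts 1 to 3. Both were above 0 in the globin-rich libraries alone. The 5′ part of *Gp1ba*, the alpha chain that binds von Willebrand factor (Chr. 11, 70639102 to 70643986), lies in a feature named *4930544D05Rik* from 70615848 to 70642036. That feature was at 0.364, 0.368 and 12.4 FPKM in bone 1 to 3 and at 0.326, 13.3 and 14.0 in osteoblasts 1 to 3. Reads of *Gp1ba* and of that gene cannot be told apart, so neither value counts as a level of *Gp1ba*.

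*Gp6*, the collagen receptor, was the lowest of the 7 genes wherever it was found. It was listed at 0 in bone 1, bone 2 and osteoblasts 1 and was at 2.67 FPKM in bone 3, 4.18 in osteoblasts 2 and 5.22 in osteoblasts 3. The highest globin-rich library was 1.95 times the lowest, the widest range among them for any of the 7 genes. On its 1152 bases, 3 read pairs would give 0.115 to 0.192 FPKM. The mean was 0.891 ± 1.54 FPKM for bone and 3.14 ± 2.76 for osteoblasts (SD, n = 3 each).

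*Vwf*, von Willebrand factor, was at 0.420, 0.158 and 63.2 FPKM in bone 1 to 3 and at 0.208, 41.8 and 52.2 in osteoblasts 1 to 3. The lowest globin-rich library was 99.6 times the highest of the others, and 68.9 times after scaling to the sum of named genes. The mean was 21.3 ± 36.3 FPKM for bone and 31.4 ± 27.5 for osteoblasts (SD, n = 3 each). Its feature spans Chr. 6, 125546774 to 125686679, plus strand. As endothelial cells also make von Willebrand factor, 12 endothelial markers were set beside it. Of these, 11 were higher in every globin-rich library than in every other library, an order that 38.4% of all genes tested had. The summed FPKM of the 12 was 165 to 183 in the globin-rich libraries and 10.8 to 31.7 in the others. *Pecam1*, an adhesion protein of endothelium and platelets, was at 1.92, 0.0871 and 15.5 FPKM in bone 1 to 3 and at 0.526, 20.9 and 20.9 in osteoblasts 1 to 3. *Eng*, the endoglin gene that stromal cells also express, was the exception, at 16.8, 7.89 and 23.1 FPKM in bone 1 to 3 and at 23.3, 19.5 and 16.8 in osteoblasts 1 to 3. *Tek*, *Cldn5*, *Esam* and *Robo4* were listed at 0 in bone 2. For each 100 FPKM of the summed endothelial markers there were 1.36, 1.46 and 36.4 FPKM of *Vwf* in bone 1 to 3, and 0.655, 22.8 and 31.5 in osteoblasts 1 to 3. In the globin-poor libraries much of that sum was *Eng*. The endothelial cadherin gene *Cdh5* alone, 1 of these markers, was set beside *Vwf* after the values were seen. The ratio of *Vwf* to *Cdh5* was 0.240, 3.71 and 7.11 in bone 1 to 3 and 0.150, 5.44 and 4.90 in osteoblasts 1 to 3. Bone 2 was thus below the globin-rich libraries but nearer to them than to the others. In bone 2 *Cdh5* was at 0.0425 FPKM, and 3 read pairs on 1 kb correspond to 0.205 FPKM there, so that ratio rests on few reads. How much of *Vwf* came from endothelial cells was not tested.

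**Figure D3:**
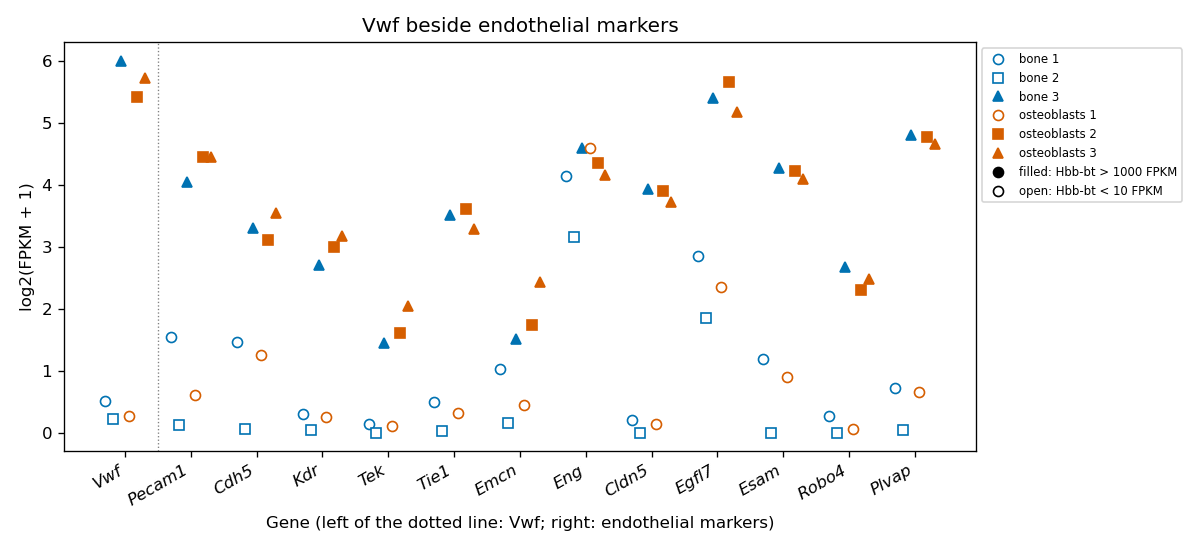
FPKM of *Vwf* (left of the dotted line) and of 12 endothelial markers (right) as log2(FPKM + 1), with colour for the label, shape for the replicate and filled points for *Hbb-bt* above 1000 FPKM. The filled points lie above the open ones for *Vwf* and 11 of the markers, and overlap them for *Eng*. Over all genes tested, 38.4% had the former order.

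The order of the 7 genes within a library also differed. In bone 1, bone 2 and osteoblasts 1 the order from the top was *Pf4*, *Gp1bb* and *Itga2b*, and these were the only 3 of the 7 genes at or above 1 FPKM. In bone 3 and osteoblasts 3 it was *Pf4*, *Ppbp*, *Itga2b*, *Vwf*, *Gp1bb*, *Gp5* and *Gp6*, while in osteoblasts 2 *Gp1bb* stood above *Vwf*. *Vwf* and *Gp1bb* are thus neighbours that overlap across the globin-rich libraries, at 41.8 to 63.2 and 41.2 to 47.1 FPKM. *Pf4* and *Ppbp* did not overlap there (290 to 366 against 162 to 272 FPKM), nor did *Ppbp* and *Itga2b* (83.9 to 104 FPKM). The likeness of profiles was measured as the root mean square difference of log2(FPKM + 1) over the 6 libraries after centring each gene on its mean. The closest pairs among the 7 genes were *Pf4* with *Gp1bb* (0.27) and *Gp5* with *Vwf* (0.29), and the farthest was *Ppbp* with *Gp1bb* (2.99). The features of *Gp1bb* and *Itga2b* also cover *Septin5* and *Gpatch8*, so their place in the order and their likeness may include reads of those neighbours. *Pf4* and its neighbour *Ppbp* were 2.80 apart.

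Among 12105 other tested genes, the 5 whose profile was nearest to that of *Pf4* were *Cox17*, *Limd2*, *Prodh*, *Gm11492* and *Vasp*, at 0.09 to 0.12 on the same measure. *Vasp*, a regulator of actin that is abundant in platelets, was at 43.1, 16.9 and 117 FPKM in bone 1 to 3 and at 26.5, 134 and 114 in osteoblasts 1 to 3. The 5 nearest to *Vwf* were *Ank1*, *Sptb*, *E2f2*, *Fam46c* and *Slc38a5*, at 0.11 to 0.21. *Ank1* and *Sptb* encode ankyrin and spectrin of the red cell membrane. *Ank1* was at 0.497, 0.227 and 61.7 FPKM in bone 1 to 3 and at 0.287, 52.9 and 59.7 in osteoblasts 1 to 3.

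The comparison the labels imply, osteoblasts against bone, was made with limma on log2(FPKM + 1) over all 12112 genes, with Benjamini-Hochberg adjustment. No gene passed an adjusted p of 0.05 in either direction (0 higher and 0 lower, both 0%), while 17 genes (0.14%) had an unadjusted p below 0.05 and none of them was among the 7. The mean was higher under the osteoblasts label for all 7 genes, which have 2 of their 3 globin-rich libraries under that label. The median difference of the 7 was 1.14 on the log2 scale against 0.12 over all genes tested. It was 1.06 against 0.05 in TPM and 0.97 against -0.03 after scaling to the sum of named genes.

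By gene, the log2 difference, osteoblasts minus bone, was 2.91 (SE 2.45) for *Ppbp*, the largest of the 7, and 0.53 (SE 0.76) for *Gp1bb*, the smallest. It was 0.91 (SE 0.88) for *Pf4*, 1.60 (SE 1.62) for *Gp5* and 1.57 (SE 1.77) for *Vwf*. It was 1.14 (SE 1.31) for *Itga2b* and 1.05 (SE 0.80) for *Gp6*. The limma adjusted p was 0.999 for each, and for *Itga2b*, *Gp1bb*, *Gp5* and *Vwf* the SE was larger than the difference. The values rested on single libraries. Without bone 3 the difference for *Ppbp* was 5.35 (limma adjusted p = 0.0489) and without osteoblasts 1 it was 5.58 (limma adjusted p = 0.00329). Without osteoblasts 1 *Gp5* and *Vwf* also passed, at 3.29 (limma adjusted p = 0.0205) and 3.34 (limma adjusted p = 0.0301). In these fits 66 genes (without bone 3) and 262 genes (without osteoblasts 1) were higher in all. Without osteoblasts 1 that label holds globin-rich libraries alone, and without bone 3 the bone label holds globin-poor libraries alone. The label then goes more closely with the *Hbb-bt* division that orders all 7 genes, and these fits cannot separate them. Without bone 2, *Gp1bb* was at -0.02. With the replicate number as a block, 49 genes (0.405%) passed in either direction, *Ppbp* among them at the same difference of 2.91 (limma adjusted p = 0.00234). *Ppbp* was at 0 under both labels for number 1, and at 162 FPKM (bone) and 272 FPKM (osteoblasts) for number 3. For number 2, where bone is globin-poor and osteoblasts globin-rich, it was at 0 and 249 FPKM. That call thus rests mostly on the pair numbered 2.

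**Figure D4:**
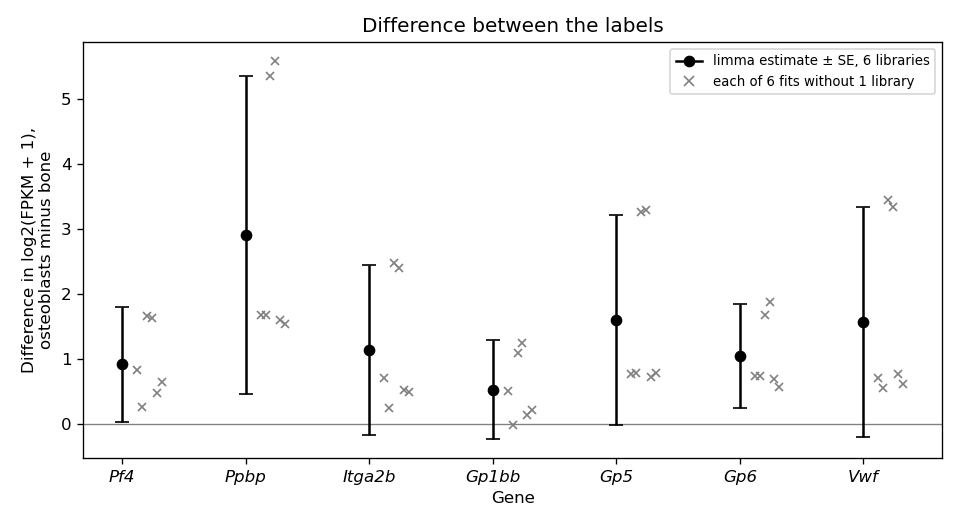
Difference in log2(FPKM + 1), osteoblasts minus bone, for the 7 named genes. Black points and bars are the limma estimate and its SE from 6 libraries, and crosses are the 6 fits that each leave out 1 library, which for *Ppbp* range from 1.54 to 5.58.

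A further 82 genes of megakaryocytes and platelets were listed in 5 groups, of which 68 had a named feature and 67 were tested. None passed the adjusted threshold of limma between the labels, and 1 had an unadjusted p below 0.05, *Apbb1ip* (named after its value was seen). Of the 67, 38 (56.7%) were above in every globin-rich library, 10 were below in every globin-rich library and 19 had neither order. Over all genes tested the share above was 38.4% and the share below 16.9%.

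Of 12 tested transcription factors, 10 were above in every globin-rich library and none below, where the shares over all genes tested were 38.4% and 16.9%. *Gata1*, needed in megakaryocytes and red cell precursors, was at 0.00270, 0.0157 and 61.6 FPKM in bone 1 to 3 and at 0, 61.9 and 55.5 in osteoblasts 1 to 3. *Nfe2*, a factor for platelet release that is also present in erythroid cells, was at 0.0736, 0.110 and 76.3 FPKM in bone 1 to 3 and at 0, 84.8 and 105 in osteoblasts 1 to 3. The labels overlapped for both. *Gfi1b*, a repressor shared by erythroid cells and megakaryocytes, was listed at 0 in all 3 globin-poor libraries and was at 53.2 to 61.2 FPKM in the rest. *Tal1*, *Lmo2* and *Zfpm1*, partners of GATA factors, were at 67.6 to 75.8, 64.4 to 73.6 and 40.6 to 68.0 FPKM in the globin-rich libraries, and at no more than 1.63, 17.4 and 1.92 in the others. *Fli1*, an ETS factor also used by endothelium and leukocytes, had neither order, at 18.0, 10.6 and 15.1 FPKM in bone 1 to 3 and at 8.53, 20.2 and 21.0 in osteoblasts 1 to 3. *Thpo*, the gene of thrombopoietin, made mainly in liver, was listed at 0 in all 6 libraries. As erythroid markers moved with this group, the part of red cell precursors in it was not tested.

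Of 15 receptors and their partners, 8 were above in every globin-rich library and 5 below, where the shares over all genes tested were 38.4% and 16.9%. *Selp*, P-selectin of alpha granules and endothelium, was at 6.56 to 10.4 FPKM in the globin-rich libraries and at 0 to 0.220 in the others. *F2rl3*, the thrombin receptor PAR4, was at 13.2 to 18.9 against 0.0197 to 0.325 FPKM, and *G6b* (*Mpig6b*), an inhibitory receptor of megakaryocytes, was at 5.64 to 11.2 FPKM and listed at 0 in the others. The opposite order was found for *Cd36*, a scavenger receptor also of macrophages, at 140, 86.4 and 7.79 FPKM in bone 1 to 3 and at 102, 14.0 and 16.8 in osteoblasts 1 to 3. It was also found for *Itgb1*, the widely expressed integrin beta 1 chain, at 196, 110 and 19.0 FPKM in bone 1 to 3 and at 107, 27.2 and 28.9 in osteoblasts 1 to 3. *P2ry12*, the ADP receptor of platelets that microglia and some macrophages also use, was lower too, with 0.711 FPKM as its lowest value in a globin-rich library (bone 3) and all of these under the 3.07 to 6.89 FPKM of the others. *Cd9*, a tetraspanin of many cells, had neither order, at 37.6 to 78.0 FPKM. Neither *Fcer1g*, the signalling partner of glycoprotein VI, nor *Clec1b*, the podoplanin receptor, had a named feature.

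Of 16 signalling genes, 11 were above in every globin-rich library and 1 below, where the shares over all genes tested were 38.4% and 16.9%. *Rasgrp2*, the exchange factor that switches on Rap1 in platelets, was at 4.33, 1.97 and 65.9 FPKM in bone 1 to 3 and at 4.68, 64.3 and 73.0 in osteoblasts 1 to 3. *Fermt3*, kindlin-3 of blood cells, was at 135 to 150 FPKM in the globin-rich libraries and at 31.8 to 70.1 in the others. *Tln1*, talin, which with kindlin activates integrins, was at 184 to 240 against 58.6 to 133 FPKM. *Bin2* was at 31.8 to 51.6 against 14.4 to 29.3 FPKM.

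Of 15 genes of granule cargo and granule formation, 6 were above in every globin-rich library and 3 below, close to the shares over all genes tested (38.4% and 16.9%). *Thbs1*, thrombospondin of alpha granules and of stromal cells, was at 1067, 631 and 77.4 FPKM in bone 1 to 3 and at 733, 77.4 and 90.2 in osteoblasts 1 to 3. *F13a1*, the factor XIII A chain, which macrophages also make, was at 494, 277 and 22.3 FPKM in bone 1 to 3 and at 311, 31.3 and 34.6 in osteoblasts 1 to 3. Both were below in the globin-rich libraries, opposite to *Pf4*, *Ppbp* and *Vwf*. *Sparc*, osteonectin of bone matrix that platelets also store, was at 989 to 1680 FPKM and *Serpine2* at 46.9 to 139 FPKM, both with neither order. *Nbeal2*, needed for alpha granules, had no named feature.

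Of 9 genes of the proplatelet cytoskeleton, 3 were above in every globin-rich library and 1 below, not more than the shares over all genes tested (38.4% and 16.9%). *Treml1*, a receptor of platelet granule membranes placed in this group, was at 0.648, 0.390 and 39.5 FPKM in bone 1 to 3 and at 0.190, 65.6 and 43.9 in osteoblasts 1 to 3. *Flna*, filamin A of most cells, had neither order at 144 to 345 FPKM, nor had *Myh9*, non-muscle myosin, at 97.1 to 208 FPKM, nor *Myl9*, a myosin light chain, at 56.7 to 178 FPKM. *Tpm4*, a tropomyosin, was at 37.0 to 64.9 FPKM in the globin-rich libraries and at 105 to 241 in the others. *Tubb1*, the beta tubulin of platelets, had no named feature.

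**Figure D5:**
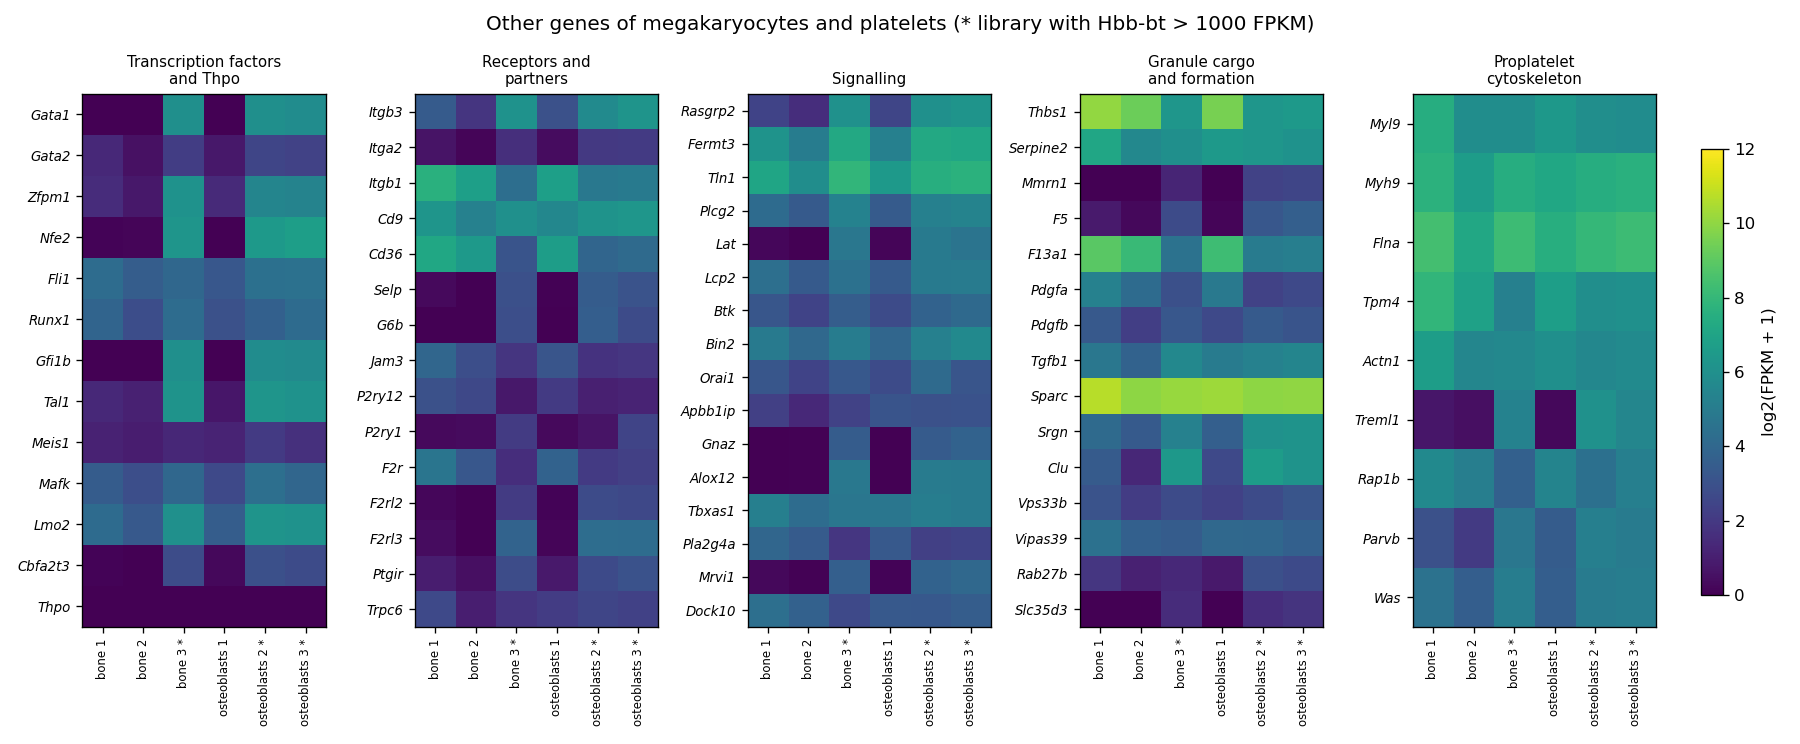
Colour gives log2(FPKM + 1) of the 68 named genes of the 5 groups (rows) in each library (columns), with an asterisk on libraries with *Hbb-bt* above 1000 FPKM. *Gata1*, *Gfi1b*, *Nfe2*, *Selp*, *G6b* and *Treml1* are dark in the 3 columns without an asterisk, while *Thbs1*, *F13a1*, *Cd36* and *Itgb1* are brighter there.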

How the data were processed

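By the study's methods, total RNA was isolated from the femora of 3 mice and from the cultures. The methods name no other mice for the cultured marrow, so the bone and osteoblasts libraries appear to come from the same 3 mice. TruSeq libraries were read as paired ends. The authors aligned reads to GRCm38 with HISAT2 2.0.5 and assembled features with StringTie 1.3.3 (SAMtools 1.7 in the submitters' processing notes). For each feature the authors deposited its FPKM, its TPM and its coverage, the mean read depth per base. There are no read counts, so the FPKM of a single library cannot be given an interval from counting. On 1 kb, 3 read pairs correspond to 0.133 to 0.221 FPKM. StringTie can merge adjacent genes, and the TruSeq v2 kit does not mark strand.

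Groups and replicates follow the labels. FPKM of features with the same name were summed. Genes with a mean of at least 1 FPKM were tested with limma 3.58.1 in R 4.3.3 (eBayes with a trend, pseudocount 1, adjusted p threshold 0.05). The fit was also run on simulated data with independent noise and a shift between the labels. Those data held no division by *Hbb-bt*, so that run does not show how the test behaves on these libraries. p-values measure the spread between these samples, described as biological replicates. The main fit treats the 6 libraries as independent and takes no account of mice shared between the labels. Libraries were described, and not averaged or tested, by *Hbb-bt*. Python 3.11.15, pandas 2.3.3, numpy 2.4.6 and matplotlib 3.10.9 served for the rest. The genes and lists were chosen with earlier results of these data known. Named are the 9 genes, fixed genes of each list, the 4 most abundant of each list and the 5 nearest to *Pf4* and to *Vwf*; some marker genes are given only as counts. A gene that was fixed in the lists is not reported here. The alternatives were a pseudocount of 0.1, filters at 0 and 5 FPKM, TPM, scaling to named genes, quantile normalization, no trend, the replicate block and leaving out each library.

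Further cell type markers were read beside the genes. Their summed FPKM was 14385 to 17371 in the globin-rich libraries and 0.497 to 5.79 in the others for neutrophils, 781 to 866 and 172 to 317 for leukocytes, 707 to 805 and 50.0 to 323 for osteoclasts, and 221 to 943 and 0.0324 to 1.09 for skeletal muscle. It was 35922 to 50411 and 3.56 to 7.31 for erythroid genes (mostly *Hbb-bt* in the globin-rich libraries, the gene that sets them apart). For smooth muscle it was 67.7 to 76.1 and 251 to 675, for osteocytes 41.5 to 47.3 and 52.0 to 129. For osteoblasts it was 5572 to 6604 and 5263 to 8496. Genes within a list did not always go with its sum. Of 4 osteoclast markers tested, 2 were above in every globin-rich library and 2 had neither order. The same counts held for the 4 leukocyte markers. *Ctsk* of osteoclasts was at 116 to 149 FPKM in the globin-rich libraries and at 29.5 to 137 in the others. Of 8 osteoblast markers, 1 was above, 2 were below and 5 had neither order. Over all genes tested, 38.4% were above in every globin-rich library and 16.9% below.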

Additional observations from a re-analysis of the deposited data

Results flagged for a closer look

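Features outside the named genes carried signal where a member has no named feature of its own. The unnamed feature within *Gp9* was at 59.15 FPKM in bone 3, 69.53 in osteoblasts 2 and 64.88 in osteoblasts 3, and was listed at 0 in bone 1, bone 2 and osteoblasts 1. An unnamed feature within *Gp1ba*, with no strand, on Chr. 11 from 70642071 to 70643905 was at 2.248 FPKM in osteoblasts 3 and at 0.577 in osteoblasts 1, and was listed at 0 in the other 4 libraries. These features were found after the values of the named genes had been seen, and no label difference was tested for them.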

How the results depend on the processing

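Between the labels, 0 genes were higher and 0 lower in limma with each change of pseudocount, filter, unit, scaling or trend, while 6 to 173 genes had an unadjusted p below 0.05. In the fit with a replicate block 46 genes were higher and 3 lower, *Ppbp* among the higher (limma adjusted p = 0.00234), and the block changed no other call among the 7 genes. For *Ppbp* the pair numbered 2, divided by *Hbb-bt*, held most of the difference. The deviations of same-numbered libraries from their label means correlated at 0.841, -0.747 and 0.83 for numbers 1 to 3. Number 1 is globin-poor under both labels, number 3 globin-rich under both and number 2 divided, so these values cannot show whether a number marks a shared mouse. The methods give 3 mice and name no others for the cultures, and the labels do not tie a number to a mouse. Leaving out each library in turn gave 0 to 262 higher genes and 0 to 38 lower genes. The calls came without osteoblasts 1 (262 and 38) and without bone 3 (66 and 11), and the other 4 gave 0 (6 to 30 genes at an unadjusted p below 0.05). Without osteoblasts 1 that label holds globin-rich libraries alone, and without bone 3 the bone label holds globin-poor libraries alone. *Gp1bb* ranged from -0.02 to 1.24 over the fits that each leave out a library, turning sign without bone 2 at -0.01629. The cause was not tested. *Gp6* has no value at a mean of at least 5 FPKM, as it is filtered out. Depth limits the low genes: values near those of 3 read pairs, such as *Gp5* in bone 1 and 2, cannot be told from 0.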
